A study of Mus musculus with 6 samples.

Results

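Solute carrier genes, whose symbols start with Slc and a family number, encode membrane transporters, and 262 of them were described here across the arrays of obese mice given bitter melon seed extract or buffer. The platform annotation held 305 symbols of that pattern. Leaving out Slc2a4, Slc37a4, Slc34a1 and Slc22a12 by name gave 301 genes, out of 16675 named genes on the array. Each gene was represented by the brightest of its probes, by mean log2 intensity over the 6 arrays. A gene was kept if 1 array or more had it at or above that array's median probe (8.95 on the log2 scale), which held for 262 of the 301 and for 13862 of all named genes. Slc32a1, Slc34a2 and Slc15a1 lay just outside this limit, 0.01, 0.05 and 0.10 below it, and Slc22a21, Slc35f3 and Slc16a5 lay just inside, 0.02, 0.03 and 0.04 above it. The other 39 genes, Slc10a1 among them, were under the median probe on every array and are described no further except where named.

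The mice were ob/ob mice (strain B6.V-Lepob/J), which make no functional leptin and are obese, and this holds for the controls as well. After a fast of 4 h they received MCSE, an aqueous extract of Momordica charantia (bitter melon) seeds, or PBS (phosphate-buffered saline) by mouth. Glucose at 1 g/kg body weight followed by intraperitoneal injection after 15 min, and tissues labelled muscle, adipose and liver were taken 4 h after the glucose. There were 6 groups, PBS muscle, MCSE muscle, PBS liver, MCSE liver, PBS adipose and MCSE adipose, with 1 array in each. The labels do not say whether an array holds RNA of 1 mouse or of several. A single array in each group allows no test between MCSE and PBS within a label, and none was made across labels; the precision of every value below is limited by the number of arrays.

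Solute carriers move sugars, amino acids, nucleotides, ions, metals, vitamins and drugs across the plasma membrane and the membranes of organelles. Members are numbered by family, and a family usually shares a substrate class: SLC2 and SLC5 carry sugars, SLC25 carries metabolites across the inner mitochondrial membrane, and SLC35 carries nucleotide sugars into the Golgi. Many are restricted to a tissue. Skeletal muscle exports lactate and exchanges ADP for ATP at high rates, hepatocytes take up bile acids and fatty acids, and the kidney tubule recovers glucose, amino acids and salts from the filtrate with carriers that few other tissues make. The symbols Slc4a1ap, Slc9a3r1 and Slc9a3r2 match the pattern but name proteins that bind carriers and are no carriers themselves.

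The labels were checked first with markers that are not solute carriers, and the arrays did not all match their labels. Fast skeletal muscle markers had a median log2 intensity of 15.87 on both muscle arrays and of at most 9.37 on the other 4, with 6 of 7 markers in the upper quartile of all probes on each muscle array. Hepatocyte markers had medians of 13.09 on PBS liver and 12.73 on MCSE liver, against 9.88 and 10.30 on the muscle arrays. The same liver-labelled arrays also carried kidney markers, with a median of 12.47 on PBS liver and 14.27 on MCSE liver over 7 genes, and adipocyte markers, with medians of 14.81 and 15.12. The muscle arrays carried adipocyte markers too, with medians of 12.86 on PBS muscle and 12.91 on MCSE muscle. On MCSE adipose the medians were 15.13 for adipocyte, 14.15 for kidney and 12.81 for hepatocyte markers. Adipocyte markers had a median of 9.36 on PBS adipose, the lowest of the 6 arrays. Over the 262 transporters, MCSE adipose and MCSE liver differed by a median of 0.15 on the log2 scale, less than the 0.21 between both muscle arrays, and only 6 transporters differed at least 2-fold, all higher on MCSE adipose. PBS adipose stood apart, with correlations over all probes between 0.307 and 0.517 with the other arrays and 131 to 174 transporters at least 2-fold away. The groups are therefore called by their labels. In such bulk samples, fewer cells of a type and less RNA per cell cannot be told apart.

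**Figure D1:**
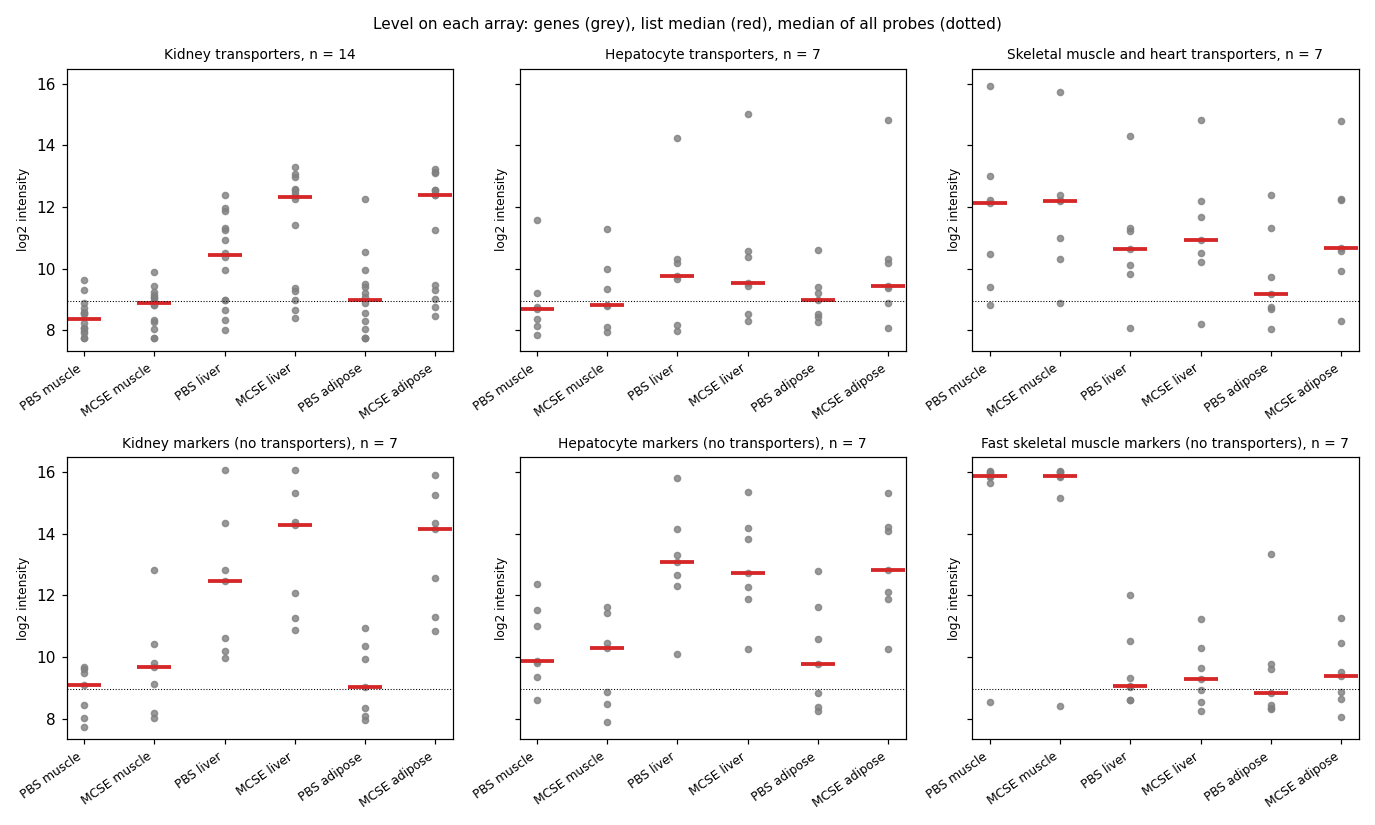
Median log2 intensity on each array (x axis, treatment and tissue label; y axis, log2 intensity) for marker lists and transporter lists; points are genes, bars are medians and the dotted line is the median of all probes. The kidney transporters had medians of 8.38 and 8.89 on the muscle arrays, 10.43 on PBS liver and 12.31 on MCSE liver, and the fast muscle markers had medians of 15.87 on both muscle arrays.

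The transporters as a class were brighter on the liver label than on the muscle label. Of the 301 genes, 164 (54.5%) reached the median of all probes on PBS muscle and 168 (55.8%) on MCSE muscle, beside 60.6% and 60.7% of all named genes. On PBS liver 194 (64.5%) and on MCSE liver 210 (69.8%) did so, beside 61.5% and 62.1% of all named genes. The liver-labelled arrays thus held more transporters above the median than the muscle arrays did, while the share over all genes moved little. A gene's highest level fell most often on PBS adipose, for 94 of the 262 (35.9%, beside 39.3% of all genes kept), followed by MCSE liver (45), MCSE adipose (44), PBS liver (37), MCSE muscle (24) and PBS muscle (18).

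Mitochondrial carriers of energy metabolism were measured on all labels. Slc25a4 is the ADP/ATP exchanger of heart and muscle mitochondria and Slc25a3 brings phosphate into mitochondria. Slc25a4 read 15.93 on PBS muscle and 15.74 on MCSE muscle, 14.29 on PBS liver and 14.80 on MCSE liver, 8.75 on PBS adipose and 14.80 on MCSE adipose. PBS adipose was thus far below every other array for this carrier. Slc25a3 read 15.31 and 15.16 on PBS and MCSE muscle, 13.96 and 14.36 on PBS and MCSE liver, and 10.97 and 14.40 on PBS and MCSE adipose, with PBS adipose again the lowest.

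**Figure D2:**
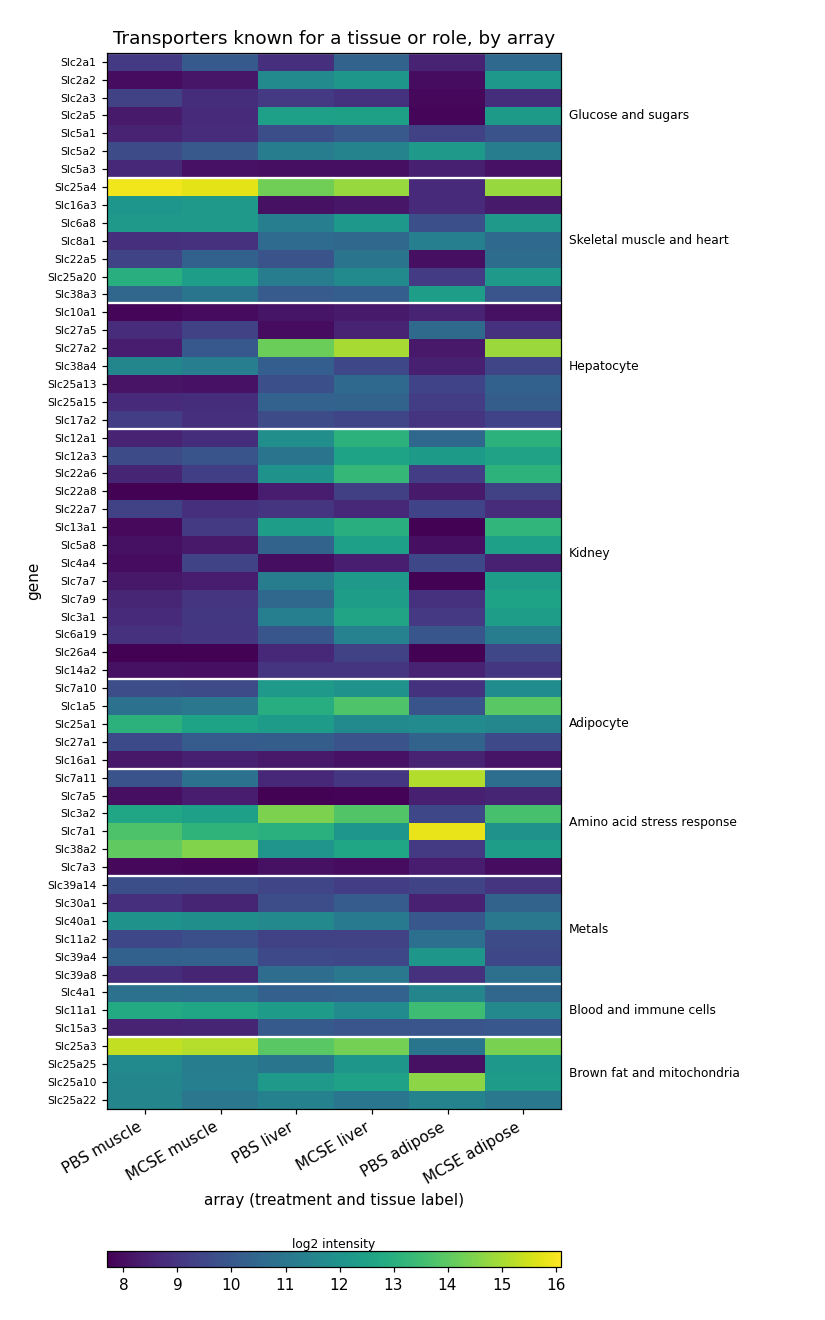
Log2 intensity (colour) of transporters known for a tissue or role (rows, grouped by list) on the 6 arrays (columns, treatment and tissue label). Colours are to be compared along a row: Slc16a3 was bright on both muscle arrays (12.13 and 12.20) and Slc2a2 on both liver arrays and MCSE adipose (11.72, 12.13 and 12.19).

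Muscle and liver labels were then compared, with the PBS and MCSE arrays of a label as its 2 samples. On log2 values of 12475 genes, limma with Benjamini-Hochberg adjustment called 9.71% of all genes higher and 15.1% lower on the muscle label, counting differences of 2-fold or more with an adjusted p below 0.05. Of the 240 transporters tested, 20 (8.33%) rose and 66 (27.5%) fell on muscle relative to liver, and their median difference was -0.37 against -0.04 for all genes. The share of transporters lower on muscle was above the background and the share higher was close to it. Of the 240, 181 reached the median probe on a muscle array and 224 on a liver-labelled array, beside 10711 and 11342 of the 12475 genes. A gene that reached it on 1 label only could be called in 1 direction only. The part of this filter in the shares was not tested. A fit of all 6 arrays, in which the adipose-labelled arrays set much of the spread, called 1 transporter higher, Slc16a3 (adjusted p 0.04998 in limma with Benjamini-Hochberg adjustment, and 6.61e-06 to 0.04998 over all alternatives run), and 0 lower, with 8 higher and 36 lower at an unadjusted p under 0.05. That fit called 47 of all genes higher and 0 lower. How many of all genes reached an unadjusted p under 0.05 in limma was not counted. The 8 and 36 therefore have no background beside them. Without PBS muscle the 4-array counts became 4 higher and 19 lower, and without MCSE muscle 4 and 18.

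**Figure D3:**
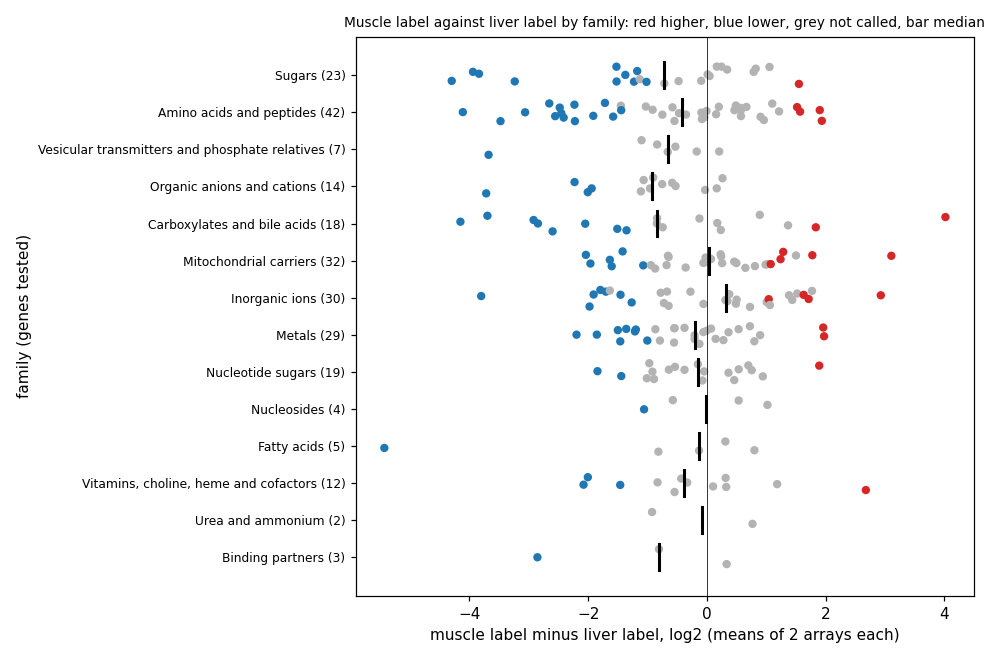
Difference between muscle and liver label (x axis, log2, mean of 2 arrays minus mean of 2 arrays) for the transporters tested, by substrate family (y axis, with the number tested); red points were called higher and blue points lower in limma, and bars are medians. The sugar family had 10 genes called lower and 1 higher, and the mitochondrial family 6 lower and 5 higher. Over all genes tested 15.1% were called lower and 9.71% higher.

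Slc16a3 and Slc25a12 had the largest differences among carriers higher on muscle. Slc16a3, the proton-linked exporter of lactate from glycolytic muscle, read 12.13 on PBS muscle and 12.20 on MCSE muscle against 8.07 on PBS liver and 8.22 on MCSE liver, and 8.69 and 8.31 on PBS and MCSE adipose. The related monocarboxylate carrier Slc16a7 was lower on muscle (-2.92). Both muscle arrays lay above all 4 others for Slc16a3, and the difference was 4.02 (SE 0.27, n = 2 arrays per label, adjusted p 0.000697 in limma with Benjamini-Hochberg adjustment). Slc16a3 lay under the median probe on both liver arrays, so it could only be called higher. Slc25a12, the mitochondrial aspartate/glutamate exchanger, read 12.78 and 12.67 on PBS and MCSE muscle, 9.48 and 9.75 on PBS and MCSE liver, a difference of 3.11 (SE 0.28). Its paralogue Slc25a13, the form best known from liver, went the other way, at 8.15 and 8.11 on muscle and 9.76 and 10.58 on liver, a difference of -2.04 (SE 0.35, adjusted p 0.0109 in limma). Slc25a13 lay under the median probe on both muscle arrays, so it could only be called lower. Within the 32 mitochondrial carriers tested, 5 rose on muscle: Slc25a12, Slc25a11 (1.78), Slc25a4 (1.29), Slc25a20 (1.24) and Slc25a3 (1.08). Slc25a11 exchanges oxoglutarate for malate, and Slc25a20 brings acylcarnitines into mitochondria for oxidation. The 6 that fell were Slc25a13, Slc25a39, Slc25a17, Slc25a15, Slc25a24 and Slc25a14, by 1.07 to 2.04, and Slc25a15 is the ornithine carrier of the urea cycle. The family's median difference was 0.03, and of all genes tested 9.71% rose and 15.1% fell.

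Amino acid carriers were divided, as were all genes tested (9.71% higher and 15.1% lower on muscle). Of 42 tested, 4 rose on muscle: Slc7a8 (1.94), Slc38a2 (1.90), Slc38a4 (1.57) and Slc7a11 (1.52), although the other probes of Slc7a11 gave 0.11 and -0.01. Slc38a2 takes up small neutral amino acids when they are scarce, and it read 14.05 and 14.49 on PBS and MCSE muscle, 12.08 and 12.66 on PBS and MCSE liver, and 9.14 and 12.40 on PBS and MCSE adipose. Slc38a4, a related carrier known from liver and muscle, stood on the hepatocyte list and yet was higher on muscle, at 11.57 and 11.29 against 10.20 and 9.52. The 14 that fell included Slc7a13 (-4.11), Slc7a7 (-3.48), Slc3a1 (-3.06), Slc7a9 (-2.66) and Slc6a19 (-1.72). Slc3a1 and Slc7a9 together form the renal cystine transporter, and Slc6a19 recovers neutral amino acids in kidney and gut. Slc3a2, the heavy chain that brings several SLC7 carriers to the membrane, fell by 1.58 and read 12.66 and 12.43 on muscle and 14.45 and 13.81 on liver.

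Sugar carriers were more often called lower than higher on muscle, beside 15.1% lower and 9.71% higher of all genes tested. Among 23 tested genes of the sugar families 10 fell and 1 rose on muscle, Slc45a1 (1.55). Slc2a2, the glucose carrier of hepatocytes, beta cells and kidney tubule, read 7.97 and 8.20 on PBS and MCSE muscle, 11.72 and 12.13 on PBS and MCSE liver, and 7.98 and 12.19 on PBS and MCSE adipose. It differed by -3.84 (SE 0.30, adjusted p 0.00114 in limma). Slc2a5, the fructose carrier, read 8.31 and 8.71 on muscle and 12.45 and 12.46 on liver, a difference of -3.94 (SE 0.29). Slc2a2 and Slc2a5 lay under the median probe on both muscle arrays, so they could only be called lower. Slc5a10, a sodium-linked carrier of mannose and fructose known from kidney, had the largest difference of the family, -4.30. Slc5a2, the sodium-glucose carrier of the proximal tubule that glucose-lowering gliflozin drugs block, read 9.65 and 10.04 on muscle and 11.27 and 11.47 on liver and fell by 1.52. The second probe of Slc5a2 gave -3.69. The family is defined by number, so it also holds Slc5a8 (-3.24), which carries monocarboxylates, and Slc5a6 (-1.17), which carries vitamins.

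Of 5 fatty acid carriers tested, 1 was called, lower on muscle. Slc27a2, which imports and activates very long chain fatty acids in liver and kidney, read 8.37 on PBS muscle, 10.004 on MCSE muscle, 14.23 on PBS liver, 15.01 on MCSE liver, 8.26 on PBS adipose and 14.83 on MCSE adipose. It differed by -5.43 (SE 0.57, adjusted p 0.00257 in limma), the widest of the 240 by brightest probe, and its second probe gave -3.97. Slc13a1, the sodium-sulphate carrier of the kidney, differed by -4.15, and its relative Slc13a3, which carries dicarboxylates, by -3.70. Slc22a6, the organic anion transporter through which the kidney secretes many drugs, read 8.57 and 9.26 on PBS and MCSE muscle and 11.97 and 13.30 on PBS and MCSE liver, a difference of -3.72 (SE 0.50), and its second probe gave -0.89. Of 18 carboxylate and bile acid carriers tested 8 fell and 2 rose (Slc16a3 and Slc10a4), and of 14 organic ion carriers 4 fell and 0 rose. Over all genes tested 15.1% fell and 9.71% rose. Slc10a4 differed by 1.84, and its other probes gave 0.11, -0.50 and 0.90. Slc17a1, a renal and hepatic urate and phosphate carrier, differed by -3.68. Slc13a3 and Slc17a1 lay under the median probe on both muscle arrays, so they could only be called lower.

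Ion, metal and vitamin carriers held calls in both directions, as did all genes tested, of which 9.71% rose and 15.1% fell on muscle. Of 30 inorganic ion carriers tested 7 fell, led by Slc12a1 (-3.80), the salt carrier of the thick ascending limb and target of loop diuretics. It read 8.52 and 8.81 on PBS and MCSE muscle, 11.86 and 13.08 on PBS and MCSE liver, and 10.54 and 13.09 on PBS and MCSE adipose. The 4 that rose were Slc26a8 (2.93), Slc9a2 (1.72, second probe 0.12), Slc12a2 (1.63) and Slc20a2 (1.04). Among 29 metal carriers 8 fell, with the zinc and manganese importer Slc39a8 at -2.20, and the magnesium carriers Slc41a1 (1.98) and Slc41a3 (1.96) rose while their relative Slc41a2 (-1.196) fell. Of 12 vitamin and cofactor carriers 3 fell and Slc44a2 (2.68), a choline-like transporter, rose.

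The transporters known for a tissue were read as lists. All 14 kidney carriers were kept, and 10 of the 14 fell on the muscle label with 0 higher (median difference -2.32). Of all genes tested 15.1% fell and 9.71% rose. Only 8 of the 14 reached the median probe on a muscle array. The others lay under it on both muscle arrays, among them Slc26a4 (7.74 on both), Slc5a8 (8.08 and 8.26) and Slc12a1 (8.52 and 8.81). These others entered the test through the liver label and could only be called lower, so the filter set the direction of their calls. The list was chosen with earlier results of these data known. Of 7 hepatocyte genes read on the array, Slc10a1, the main bile acid importer of hepatocytes, was below the filter on all arrays. Of the 6 hepatocyte genes tested 3 fell on muscle and 1, Slc38a4, rose. Slc27a5, the bile acid and fatty acid ligase of hepatocytes, read 7.98 on PBS liver and 8.53 on MCSE liver, below both muscle arrays (8.77 and 9.34). The muscle and heart list gave 3 higher (Slc25a4, Slc16a3 and Slc25a20) and 1 lower (Slc8a1) of 7. The kidney markers that are no transporters were lower on the muscle label, as the kidney list was. Their summed log2 intensity was 11.84 on PBS muscle, 13.47 on MCSE muscle, 16.70 on PBS liver and 17.27 on MCSE liver. The part of these markers in the differences was not tested.

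Promoter sequence is shown for carriers at either end of this comparison, so that the difference between labels can be set beside the DNA in front of the genes. The sequences are from RefSeq (build GRCm38.p6, plus strand) and cover the 250 bases before the annotated start, 5′ to 3′. The table gave 201 of the 262 transporters. Capitals mark AGGTCA, a hexamer recognised by many nuclear receptors, in the first 3 genes, GTTAAT, part of the site of the liver and kidney factor HNF1, in Slc22a6, and ACGTG, the core of the hypoxia response element, in Slc16a3. Matches were taken on both strands, so AGGTCA on the other strand reads TGACCT. The genes and motifs to print were chosen after their values were seen.
Slc27a2: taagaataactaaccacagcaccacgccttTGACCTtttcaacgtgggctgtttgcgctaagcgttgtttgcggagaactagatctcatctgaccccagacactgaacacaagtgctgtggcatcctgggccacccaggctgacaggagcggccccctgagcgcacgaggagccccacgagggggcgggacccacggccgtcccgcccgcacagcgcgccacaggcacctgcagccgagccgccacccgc
Slc2a2: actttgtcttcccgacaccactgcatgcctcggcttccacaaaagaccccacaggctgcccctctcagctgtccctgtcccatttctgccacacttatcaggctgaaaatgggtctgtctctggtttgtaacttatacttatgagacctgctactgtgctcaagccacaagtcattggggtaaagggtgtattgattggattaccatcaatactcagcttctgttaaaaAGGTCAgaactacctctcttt
Slc17a1: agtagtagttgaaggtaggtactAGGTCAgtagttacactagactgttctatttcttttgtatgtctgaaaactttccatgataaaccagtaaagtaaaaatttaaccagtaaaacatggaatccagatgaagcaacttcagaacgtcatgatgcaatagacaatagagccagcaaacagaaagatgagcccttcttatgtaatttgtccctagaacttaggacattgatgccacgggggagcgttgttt
Slc22a6: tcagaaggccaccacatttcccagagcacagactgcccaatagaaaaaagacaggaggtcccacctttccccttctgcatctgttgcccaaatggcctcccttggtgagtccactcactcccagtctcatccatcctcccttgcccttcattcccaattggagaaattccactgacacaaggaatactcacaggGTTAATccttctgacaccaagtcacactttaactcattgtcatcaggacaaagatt
Slc16a3: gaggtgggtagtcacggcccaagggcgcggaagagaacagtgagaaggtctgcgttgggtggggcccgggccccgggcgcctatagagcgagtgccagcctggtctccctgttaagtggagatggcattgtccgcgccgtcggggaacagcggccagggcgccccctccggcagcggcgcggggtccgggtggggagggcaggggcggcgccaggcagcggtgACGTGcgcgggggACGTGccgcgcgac

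These windows lie at chr2:126552774-126553023 for Slc27a2, chr3:28697653-28697902 for Slc2a2, chr13:23868768-23869017 for Slc17a1, chr19:8617746-8617995 for Slc22a6 and chr11:120948817-120949066 for Slc16a3. The capitals begin 220, 21, 227 and 56 bases before the start in the first 4, and 27 and 14 bases before it in Slc16a3. AGGTCA was found in 12 of the 54 matched promoters of carriers lower on muscle (22.2%) and in 0 of the 16 of carriers higher on muscle, beside 13.8% of 27025 promoters of the same length and 10.9% of all 201 transporters. GTTAAT was found in 2 of the 54 and 0 of the 16, beside 6.52% of all promoters. ACGTG was found in 13 of the 54, Slc27a2 among them, and in 3 of the 16 (Slc16a3, Slc25a3 and Slc41a3), beside 16.6% of all promoters and 25.9% of all transporters. In the Slc27a2 window printed above it stands in small letters. These are 3 of 16 motifs counted, and the counted TGACCTTTG contains AGGTCA on the other strand. A match is a description of letters and shows no binding.

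In muscle, few transporters differed between MCSE and PBS. Of 181 measured there (at or above the median probe on either array), 11 (6.08%) were at least 2-fold higher with MCSE, beside 3.9% of all measured genes, and 1 (0.552%) was at least 2-fold lower, beside 1.88%. The median difference was -0.05, as for all measured genes, with an SD over transporters of 0.492 against 0.552 over all genes. No difference has a replicate check. Where a gene had 2 measured probes, the SD of a probe's difference, estimated from the gap between them, was 0.517 over 1504 genes, and this holds no variation between mice.

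Slc27a2 had the largest difference in muscle, 8.37 on PBS and 10.004 on MCSE, 1.64 on the log2 scale, and its second probe gave 1.23. This gene is bright on the liver label (14.23 and 15.01), so muscle remained far below it. Sodium-proton exchangers followed: Slc9a9, of endosomes, read 9.40 and 10.999 (1.59) and Slc9a3, the exchanger of kidney and gut epithelium, 10.03 and 11.48 (1.44). Slc23a3, an orphan relative of the vitamin C carriers, read 8.98 and 10.35 (1.38). Slc29a1, the equilibrative nucleoside carrier, read 9.29 and 10.60 (1.31), and Slc7a11, which exchanges cystine for glutamate, 9.84 and 10.85 (1.01). The other probes of Slc7a11 gave 0.13 and -0.21. Slc10a7 (14.67 and 16.05) and Slc24a5 (12.53 and 13.77) were also higher, by 1.37 and 1.24.

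Of the remaining 3 with a 2-fold higher value, at least 1 array was dim: Slc4a4, a bicarbonate carrier, went from 7.97 to 9.44, Slc13a1 from 7.91 to 9.14 and Slc35f4 from 7.83 to 9.17. The second probe of Slc4a4 differed by 0.03. Slc35a3, which carries UDP-N-acetylglucosamine into the Golgi, was the transporter that was lower, 10.12 on PBS and 9.06 on MCSE, a difference of -1.06, whereas its second probe gave 0.49. The glucose carrier Slc2a1, found in most cells, read 9.12 and 10.09, a difference of 0.97 just under 2-fold, and Slc2a3 read 9.36 and 8.78. By family, inorganic ion carriers held 4 of the 11 higher values among 24 measured, and the 29 mitochondrial and 15 sugar carriers measured held 0 in either direction. Over all measured genes 3.9% were at least 2-fold higher and 1.88% lower.

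Several marker lists differed within the muscle pair as well. The 7 kidney markers had a median of 9.08 on PBS muscle and 9.66 on MCSE muscle and a summed log2 intensity of 11.84 and 13.47, with Kap, a protein of proximal tubule cells, at 9.61 and 12.81. Of the 14 kidney carriers 8 were measured on muscle and 2, Slc4a4 and Slc13a1, were at least 2-fold higher. The 7 slow and cardiac muscle markers had medians of 12.52 and 13.74 and summed log2 intensities of 15.86 and 17.01, with Myh7 and Tnni1 of slow fibres higher by 3.54 and 3.84 and Myh6, Tnnt2 and Actc1 lower. The 4 neutrophil markers summed to 11.79 and 12.79. The 7 hepatocyte markers had medians of 9.88 and 10.30, although their sum went from 13.68 to 13.24 and Alb from 12.35 to 10.44. Their part in the transporter differences was not tested.

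**Figure D4:**
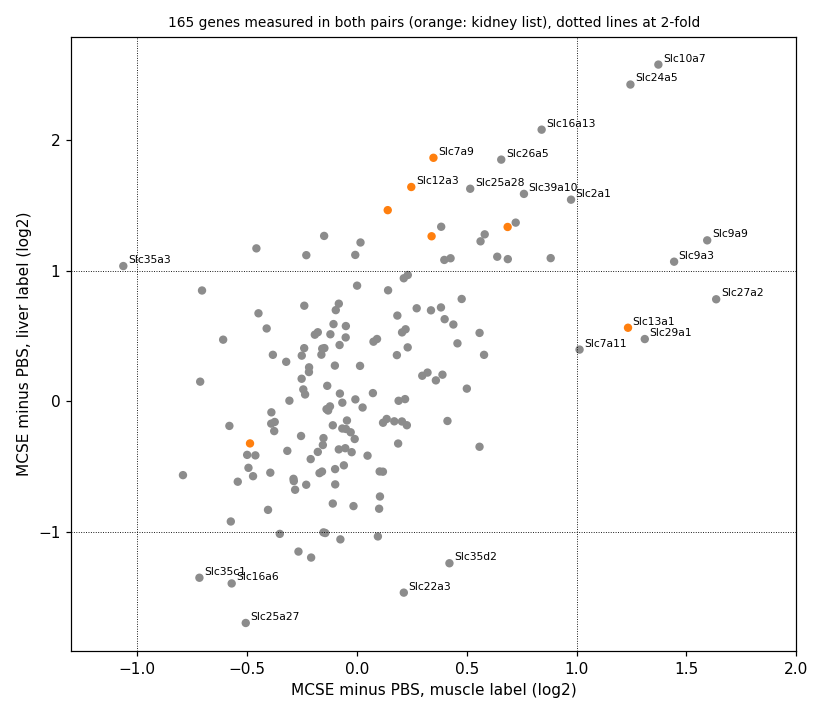
MCSE minus PBS on the muscle label (x axis, log2) against the liver label (y axis, log2) for the 165 transporters measured in both, 1 array per group; dotted lines mark 2-fold and orange points are kidney list genes. Slc10a7 (1.37 and 2.58), Slc24a5 (1.24 and 2.43), Slc9a9 (1.59 and 1.23) and Slc9a3 (1.44 and 1.07) were at least 2-fold higher in both.

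On the liver label more transporters were higher with MCSE. Of 224 measured, 45 (20.1%) were at least 2-fold higher, beside 8.27% of all measured genes, and 14 (6.25%) were at least 2-fold lower, beside 6.01%. The median difference was 0.23, against -0.02 for all measured genes, and 60.7% of the transporters lay above 0 against 49% of all. The SD of a probe's difference was 0.611 over 1653 genes with 2 measured probes. Of the 6 transporters whose brighter probe was 2-fold away and that had a second measured probe, the second had the same sign in 5 and was also 2-fold away in 3. Over all genes there were 227 such cases, with the same sign in 140 and also 2-fold away in 31. A second probe that was dim on both arrays was not counted, as in Slc36a4 (1.10 against -0.58) and Slc5a9 (1.09 against 0.68).

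Carriers known from the kidney tubule were among the largest differences. Slc5a8, which recovers lactate and other monocarboxylates, read 10.36 on PBS liver and 12.45 on MCSE liver (2.09), and its second probe gave 1.37. Slc34a3, a sodium-phosphate carrier of the proximal tubule, read 8.88 and 10.94 (2.06), and Slc17a1 11.03 and 13.06 (2.03). Slc7a9 read 10.50 and 12.37 (1.86) and its partner Slc3a1 11.33 and 12.59 (1.26). Slc12a3, the thiazide-sensitive salt carrier of the distal tubule, read 10.92 and 12.56 (1.64) with a second probe at 2.27, and Slc12a1 read 11.86 and 13.08 (1.22). Slc22a6 read 11.97 and 13.30 and Slc47a1, which exports organic cations from tubule cells and hepatocytes, 12.10 and 13.43, each a difference of 1.34. The second probe of Slc22a6 gave 0.51. Of the 13 kidney carriers measured, 7 were at least 2-fold higher and 0 lower, beside 8.27% and 6.01% of all measured genes. Slc34a3, Slc17a1 and Slc47a1 are not on that list. Carriers known from kidney that stayed below a 2-fold rise included Slc13a1 (0.56) and Slc22a7 (-0.32) on the list. Off the list, Slc2a2 (0.41), Slc5a2 (0.20, second probe 0.85) and Slc6a13 (-1.06) did so too. The list's median went from 10.43 on PBS liver to 12.31 on MCSE liver, and it was 12.39 on MCSE adipose.

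Kidney markers that are no transporters moved the same way. Umod, the most abundant protein of urine, read 12.47 on PBS liver and 14.27 on MCSE liver (1.81), Lrp2 10.20 and 12.09 (1.88) and Cdh16 12.81 and 14.38 (1.57), whereas Kap stayed at 16.07 and 16.05. The summed log2 intensity of the 7 was 16.70 and 17.27. The 7 slow and cardiac muscle markers lay lower on MCSE liver, with a median of 8.55 against 10.59 and a summed log2 intensity of 11.69 against 13.89, and the median of the hepatocyte markers was 12.73 against 13.09. The part of these markers in the transporter differences was not tested.

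Other carriers at least 2-fold higher had no place on the kidney list. Slc10a7 had the largest difference, 13.18 on PBS liver and 15.76 on MCSE liver (2.58, or 5.97-fold), and it encodes a relative of the bile acid carriers. Slc24a5, a potassium-dependent sodium-calcium exchanger known for pigment cells, read 10.17 and 12.59 (2.43). Slc16a13, a monocarboxylate carrier of liver, read 9.96 and 12.04 (2.08), Slc16a9, a carnitine and creatine carrier, 8.29 and 10.19 (1.91), and Slc26a5, the motor protein prestin of the inner ear's hair cells, 9.21 and 11.06 (1.85). Slc2a1 read 8.82 and 10.36 (1.54) and the iron carrier Slc25a28 of mitochondria 11.86 and 13.49 (1.63). Of the 45 genes 10 were also at least 2-fold dimmer on PBS liver than on both muscle arrays and MCSE adipose: Slc10a7, Slc24a5, Slc16a13, Slc25a28, Slc26a5, Slc25a31, Slc36a4, Slc45a3, Slc8a2 and Slc9a3. PBS adipose, which was not part of that criterion, was lower still for the first 5 of these. Among all genes higher on MCSE liver this held for 43%, against 22.2% of the transporters, and 35 transporters were left without them.

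Transporters lower on MCSE liver came from several families. Slc25a27, a brain uncoupling protein, read 11.42 and 9.73 (-1.70), and its second probe gave 0.08. Slc22a3, an organic cation carrier, read 12.17 and 10.71 (-1.46), and Slc16a6 11.45 and 10.06 (-1.39, second probe 0.10). Golgi nucleotide sugar carriers followed, Slc35c1 for GDP-fucose at 11.36 and 10.02 (-1.35) and Slc35d2 at 11.33 and 10.09 (-1.24). Slc17a6 and Slc18a2, which load glutamate and monoamines into vesicles, were each lower by 1.19 (the second probe of Slc18a2 gave 0.09), and the chloride-bicarbonate exchanger Slc4a2 was lower by 1.15, from 12.97 to 11.82. Slc6a13, a GABA and taurine carrier of liver and kidney, read 12.60 and 11.55 (-1.06), and Slc9a8 10.03 and 9.001 (-1.03, second probe 0.02). Slc17a7 went from 10.08 to 7.74, the floor set for dim values, so its difference of -2.33 is limited by that floor.

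By family, the higher values on the liver label were spread over 10 of 14 groups. Over all measured genes 8.27% were at least 2-fold higher and 6.01% lower. The higher counts of metal and nucleotide sugar carriers were under that share. Inorganic ion carriers had 10 of 26 measured at least 2-fold higher and 2 lower, amino acid carriers 10 of 39 and 1, and sugar carriers 6 of 23 and 0. Carboxylate and bile acid carriers had 5 of 16 higher and 1 lower, and organic ion carriers 4 of 14 and 1, with the highest family median, 0.79. Metal carriers had 2 of 28 higher and 1 lower and a median of -0.01. Their higher pair were the zinc importers Slc39a10 (8.10 and 9.69) and Slc39a3 (8.01 and 9.18). Mitochondrial carriers had 4 of 31 higher and 3 lower, vesicular carriers 2 of 7 higher and 3 lower, and nucleotide sugar carriers 1 of 18 higher and 2 lower. The 4 fatty acid carriers measured had none past 2-fold and a median of -0.39.

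**Figure D5:**
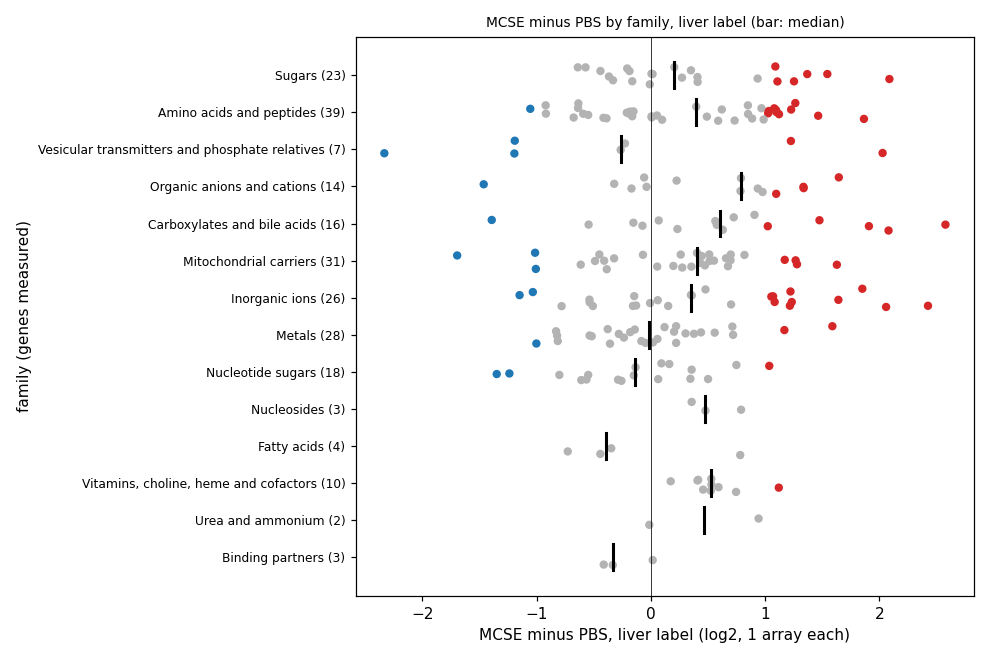
MCSE minus PBS on the liver label (x axis, log2, 1 array per group) for the 224 transporters measured, by substrate family (y axis, with the number measured); red points are at least 2-fold higher, blue points at least 2-fold lower, and bars are medians. Organic ion carriers had a median of 0.79 and metal carriers of -0.01.

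Both pairs measured 165 transporters in common. In both, 4 were at least 2-fold higher (Slc10a7, Slc24a5, Slc9a3 and Slc9a9) and 0 at least 2-fold lower, and Slc35a3 was 2-fold away in opposite directions, -1.06 in muscle and 1.04 on the liver label. Over all 9578 genes measured in both, 1.05% were at least 2-fold higher in both, beside 2.42% of the transporters, 0.177% were lower in both, and 0.271% were 2-fold away in opposite directions. The opposite directions of Slc35a3 rest on its brighter probe, since the second gave 0.49 in muscle, where it was dim, and 1.22 on the liver label. Of these 4, Slc10a7, Slc24a5 and Slc9a3 were among the genes dim on PBS liver. Slc9a3 read 8.70 and 9.77 and Slc9a9 8.52 and 9.75 on PBS and MCSE liver.

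The adipose-labelled arrays gave a different set of levels. PBS adipose was at least 2-fold above all 5 other arrays for 52 of the 262 transporters and at least 2-fold below all 5 for 27 (19.8% and 10.3%), beside 20.1% and 19.6% of all genes kept. The share above was thus near the background. Between MCSE adipose and PBS adipose, 96 of 251 measured transporters (38.2%) were at least 2-fold higher and 75 (29.9%) lower, beside 37.5% and 34.3% of all genes measured there. Slc7a11 read 15.12 on PBS adipose against 8.63 to 10.85 on the others, although its other probes read 9.46 and 10.38 on PBS adipose. Slc7a1, the carrier of cationic amino acids, read 15.83 on PBS adipose against 11.998 to 13.75, and its second probe read 11.18 on PBS adipose. Slc25a10, the mitochondrial dicarboxylate carrier, read 14.63 against 11.33 to 12.51. Slc3a2, the partner subunit of Slc7a11, was in contrast lowest there, at 9.53 against 12.43 to 14.45. The adipocyte markers were also low on PBS adipose, with a median of 9.36. Slow and cardiac muscle markers were high on it, with a median of 12.08 and 6 of 7 in the upper quartile. Their summed log2 intensity was 16.36, beside 15.86 on PBS muscle, whereas the fast skeletal muscle markers had a median of 8.82. The part of these markers in the levels was not tested. Slc7a10, an amino acid carrier known from adipocytes, read 8.94 on PBS adipose and 11.79 on MCSE adipose, beside 9.69, 9.64, 12.22 and 12.01 on PBS muscle, MCSE muscle, PBS liver and MCSE liver.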

How the data were processed

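Per the labels' protocols, the arrays are mouse oligonucleotide arrays of 1 colour, each hybridised with amplified, Cy5-labelled RNA. The authors deposited normalized intensities on a linear scale for 29922 probes on 6 arrays, and limma appears in the submitters' processing notes with neither version nor role. The genome build, the background correction and the normalization method are not given in the sources used here. All columns share 1 distribution, which assumes like distributions in all tissues. Groups came from the tissue and treatment labels. The platform annotation, which can be old, named 21020 probes with 1 symbol each, and 376 of them belonged to the 301 genes.

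Intensities under the 5th percentile (214.2) were raised to it before log2. The brightest probe stood for a gene, and 58 members had 2 or more. A 2-fold threshold was used, and no test was made of MCSE against PBS. The muscle and liver labels were set against each other on 4 arrays in R 4.3.3 by limma 3.58.1 (lmFit, eBayes) with Benjamini-Hochberg adjustment over all genes, with 2 residual degrees of freedom and a prior SD of 0.325. The arrays of a label differ in treatment, so its spread holds any effect of MCSE, and may hold no variation between mice. The fit was tested on simulated data. Python 3.11.15, pandas 2.3.3 and numpy 2.4.6 were used.

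Named genes were up to 10 members each way past 2-fold per pair with neither array under the 25th percentile, the 10 largest differences each way between labels, the 5 brightest per label, and transporters known for a tissue or role. Other genes (Slc4a4, Slc13a1 and Slc35f4 in muscle, Slc17a7, Slc39a3 and Slc39a10 on liver, and further family members) and values of second probes were chosen with those values in view. The members and lists were chosen with earlier results of these data known. Alternatives were other normalizations, probe rules, filters, thresholds, fits and leaving out each array, and the variant without the 10 genes dim on PBS liver was added after seeing the data.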

Additional observations from a re-analysis of the deposited data

Results flagged for a closer look

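Slc35a3 differed in opposite directions between the muscle and liver labels. MCSE minus PBS was -1.06 on the muscle label and 1.04 on the liver label, and the difference between labels was not tested. The second probe gave 0.49 and 1.22, the same sign on both labels.

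The adipose-labelled pair was not one of the main comparisons. Of 251 transporters measured on it, 96 were at least 2-fold higher and 75 at least 2-fold lower on MCSE adipose than on PBS adipose (38.2% and 29.9%). Over all 13133 genes measured on that pair the shares were 37.5% and 34.3%.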

How the results depend on the processing

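Counts for the muscle pair, 11 higher and 1 lower, changed by over 1.5 times with a filter at the upper quartile (7 and 0), with a 1.5-fold (23 and 7) or 3-fold threshold (2 and 0), and, for lower values, with a gene's probes averaged (0). Counts for the liver pair, 45 higher and 14 lower, moved likewise with the upper quartile filter (27 higher), the 1.5-fold (75 and 29) and 3-fold thresholds (13 and 2) and averaged probes (8 lower). Between labels, 20 higher and 66 lower became 1 and 0 with all 6 arrays, 12 higher with no filter on dim probes and 34 higher with treatment as a term. Leaving out 1 array gave 4 to 29 higher and 18 to 80 lower: 4 and 19 without PBS muscle, 4 and 18 without MCSE muscle, 17 and 80 without PBS liver, 29 and 67 without MCSE liver. The lone array of a label was then assumed to vary like the others. The cause of these changes was not tested. No result reversed.

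Among named genes and medians of MCSE minus PBS, 765 values stayed and 5 moved, all with the mean over probes: Slc35a3 -0.28 and Slc7a11 0.31 in muscle, and Slc16a6 -0.65, Slc18a2 -0.55 and Slc25a27 -0.81 on liver. Between labels, the 43 named genes that were called kept the call in 389 values and lost it in 123, and the 23 not called gained one in 3 values. No paired analysis was possible because the labels give no number that ties a mouse or array across treatments or tissues. Precision is limited by 1 array per group, and values near the floor of 7.74 have no order.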
